A study of Caenorhabditis elegans with 2 samples.

Results

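The 33 genes for subunits of the worm proteasome were examined for HMG-4-eGFP peaks in early embryos of Caenorhabditis elegans. They were chosen by name, as the protein-coding genes of the Ensembl annotation whose names start with pas-, pbs-, rpt- or rpn-, and they are 33 of 19973 protein-coding genes on the nuclear chromosomes. By role they comprise 7 alpha-ring genes (pas), 7 beta-ring genes (pbs), 6 ATPase genes (rpt) and 13 non-ATPase genes (rpn). There was 1 group with 2 biological replicates. Both came from strain OP660, which carries the unc-119 mutation tm4063 and the transgene wgIs660, in which hmg-4 is joined to TY1, EGFP and 3xFLAG tags and which also supplies a working copy of unc-119. Embryos of mixed sex were collected at 0 hours by bleaching, chromatin was sonicated to 200 to 800 bp, and the tagged protein was precipitated with an antibody against green fluorescent protein, although a second label gives the antibody as hmg-4. Whole embryos hold many cell types, and the protein followed is the transgenic one.

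The proteasome is the large protease that degrades proteins marked with ubiquitin. Its core particle is a barrel of alpha rings, which gate the entrance, and beta rings, some of whose subunits cut the substrate. The regulatory particle at either end holds a ring of ATPases that unfold the substrate and non-ATPase subunits that bind ubiquitin, remove it or serve as scaffold. Most subunit roles given here are known from yeast and human. In worm embryos the proteasome is needed for meiosis and for the removal of maternal proteins. HMG-4 belongs to the worm's FACT complex, as the counterpart of human SSRP1. FACT takes nucleosomes apart ahead of RNA polymerase and rebuilds them behind it. In the worm many genes are trans-spliced, and some are transcribed together in operons, so the annotated 5' end of a gene can lie downstream of the place where transcription starts.

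A peak is an interval that the authors called as enriched, with a signal value, which is their own enrichment measure, and a summit, its highest point. There are 4 lists. A pooled list made from both libraries and 1 list per replicate hold 30000 peaks each. The IDR list, kept by the irreproducible discovery rate, is identical to the 2137 strongest peaks of the pooled list. Read depth is unknown, so the precision that depth gives is unknown too. Peak strength is given by signal value within a list and by rank, with rank 1 the strongest peak. The pooled values run from 38.4 to 1189 and those of the replicates from 21.6 to 634 and from 21.8 to 607. Pooled values are on a larger scale than replicate values, so the lists are set side by side by rank. Positions are in bp from the annotated 5' end of a gene, with a minus sign for upstream.

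Most proteasome genes carried a peak below the IDR limit, while their share with an IDR peak was low, as it was over all protein-coding genes. No member had an IDR summit at most 500 bp from its 5' end, against 4.38% of all protein-coding genes. A count of 0 allows a share of up to 9.09% by approximation (3 of 33), and the exact 95% interval reaches 10.6%, for counting error only. One member, rpn-8, had an IDR summit inside the gene, against 3.09% of all protein-coding genes. With either place counted the share was 1 of 33 (3.03%, exact 95% interval 0.0767 to 15.8) against 6.47%, a difference within the interval. In the full pooled list, 20 of the 33 members (60.6%, exact 95% interval 42.1 to 77.1, which covers counting over genes only) had a 5' summit, one at most 500 bp away, against 29.5% of all protein-coding genes. In the gene body 26 members had one (78.8%, interval 61.1 to 91.0), against 40.6%. Counting both places, 28 members (84.8%) had a summit, against 46.2%. Among the 5000 strongest peaks 7 members had such a 5' summit against 8.53% of all protein-coding genes. Among the 10000 strongest it was 15 against 14%, and among the 20000 strongest 19 against 22.9%. With 2 replicates in 1 group these shares are descriptions, and no test was made of them.

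**Figure D1:**
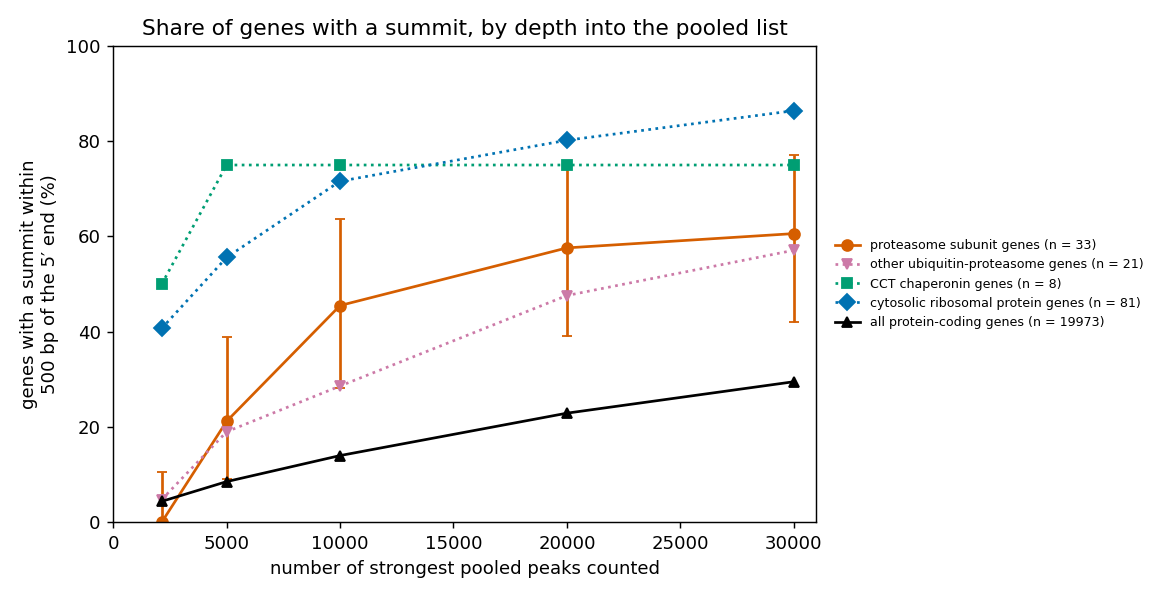
Percentage of genes (vertical axis) with a 5' summit, at most 500 bp away, against the number of strongest pooled peaks counted (horizontal axis), for proteasome subunit genes, all protein-coding genes and 3 other lists; bars are exact 95% binomial intervals for the proteasome genes. The proteasome line starts at 0 of 33 in the IDR list and reaches 60.6% over all 30000 peaks, between the lines of all protein-coding genes (29.5%) and of cytosolic ribosomal protein genes (86.4%).

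The lists of the single replicates gave similar counts of members, which need not be the same peaks. Within 500 bp of the 5' end, 21 members had a summit in replicate 1 against 28.2% of all protein-coding genes, and 22 had one in replicate 2 against 31.5%. In gene bodies it was 27 members in replicate 1 against 40.2% and 24 in replicate 2 against 43.1%. A 5' summit in both replicates was present at 16 of 33 members (48.5%), against 17.7% of all protein-coding genes. With gene bodies included, 24 (72.7%) had a summit in both, against 35.2%. The deposited q-value is above 0.05 at most of these summits. A summit with a q-value of at most 0.05 at the 5' end or in the body was present at 9 members in the pooled list (14% of all protein-coding genes), at 12 in replicate 1 (19.9%) and at 8 in replicate 2 (9.70%).

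The one IDR peak of the set lay over a small RNA gene within a proteasome gene. rpn-8, a non-ATPase subunit that pairs with the deubiquitinating subunit RPN-11, lies on chromosome I at 4175319 to 4177271 of the ce11 build, on the plus strand. Its peak at 4175806 to 4176245 had a signal value of 178 in the pooled list, with rank 1024. It was 118 in replicate 1 (rank 656) and 62.8 in replicate 2 (rank 2302), so it stood higher in the list of replicate 1. The pooled summit lay 707 bp inside rpn-8, in an intron, and within the small nucleolar RNA (snoRNA) gene R12E2.17, which spans 4175997 to 4176064 on the same strand. The summit of replicate 2, at 701 bp, also lay within R12E2.17. That of replicate 1, at 622 bp, lay outside it, 56 bp from its 5' end. SnoRNAs guide chemical modification of other RNAs, and worm snoRNAs are often made from introns of host genes. The 5' end of R12E2.17 was 29 bp from the pooled summit. rpn-8 itself had no 5' summit in any list. The 3 strongest member summits below the IDR limit, whose lowest value is 130, were at rpn-3 (115), pbs-3 (108) and pas-5 (106). A second IDR summit came within 1000 bp of a member. It lay at -887 from pas-5, with a signal value of 135 and rank 1946, and it was 197 bp from the 5' end of another snoRNA gene, F25H2.15.

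Among the 7 alpha-ring genes, 6 had a pooled 5' summit, and 4 had one in both replicates. Over all protein-coding genes the shares with such summits were 29.5% and 17.7%. pas-5, on chromosome I at 10566350 to 10567300, had the strongest in the pooled list. Its signal value was 57.3 in replicate 1, 45.2 in replicate 2 and 106 pooled (rank 3567), and the summits lay 24, 64 and 27 bp inside the gene. In both replicates the summit was therefore in the first coding exon. At pas-6 the values were 41.2 in replicate 1 and 37.0 in replicate 2, with a pooled value of 77.9 and rank 7945. At pas-7 they were 55.3 and 25.8 (77.5 pooled), and at pas-3 they were 41.6 and 38.9 (62.9 pooled). All of these summits lay inside the gene, from 116 to 447 bp past the 5' end. The other alpha-ring genes had a 5' summit in 1 replicate only. At pas-1 it was 61.0 in replicate 1 (rank 3669), at pas-2 49.8 in replicate 2 (rank 4285), and at pas-4 62.7 in replicate 2 (rank 2307). The peak at pas-1 was also in the pooled list, at 70.4, and that at pas-4 at 74.4, where the summit lay in the non-coding RNA gene C36B1.16. The replicate 2 summit at pas-4, at -283, was 6 bp from the 5' end of rpb-3, which encodes an RNA polymerase subunit and is transcribed away from pas-4. pas-2 had no pooled summit.

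Of the 7 beta-ring genes, 4 had a pooled 5' summit and 6 had a pooled summit in the body. Over all protein-coding genes the shares with such summits were 29.5% and 40.6%. pbs-3, at 4954480 to 4955427 on chromosome II, had the strongest in the pooled list, in an intron 548 bp inside the gene. Its value was 68.8 in replicate 1 (rank 2580), 22.9 in replicate 2 (rank 27575) and 108 pooled (rank 3382). The replicates therefore differed widely there, and in replicate 2 the peak was among the weakest of the list. pbs-3 begins 22 bp after the end of ulp-2 on the same strand. pbs-4 had 53.3 in replicate 1, 44.7 in replicate 2 and 92.9 pooled (rank 4950), with summits 94, 228 and 58 bp inside the gene, so both replicates held a peak over its beginning. pbs-7 had 31.0 and 30.1, with summits 249 and 252 bp inside the gene. These were close in strength and position, but ranked no higher than 16086 in either replicate. The genes for the cutting subunits are pbs-1, pbs-2 and pbs-5. pbs-1 had a single summit, in replicate 1, at 25.3 (rank 25177). pbs-2 had 49.5 in replicate 1 and 22.3 in replicate 2, at different places, 354 and 52 bp inside the gene. pbs-5 had at most 23.3 in replicate 1 and 47.2 in replicate 2 within its body, and a 5' summit of 36.0 in replicate 1 (rank 14387) at -494, whose peak overlapped one of 38.6 in replicate 2 and one of 82.6 pooled. Of pooled summits counted at these 3 genes, none ranked above 11627. At pbs-6 the 5' summit was 50 in replicate 2 and 83.0 pooled, and replicate 1's list held none at the gene.

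Of the 6 genes for the ATPase ring, which feeds substrates into the core, 3 had a pooled 5' summit. The share over all protein-coding genes was 29.5%. Another 2 of the 6 had no summit in any list. rpt-1, at 11980534 to 11982397 on chromosome V, had a 5' peak at nearly the same base in both replicates. Its summits lay at -102 in replicate 1, -101 in replicate 2 and -104 in the pooled list. The values were 25.2 (rank 25297), 58.3 (rank 2782) and 95 (rank 4695), so the position matched while the strength did not. rpt-2, at 6016059 to 6017669 on chromosome V, had 44.7 in replicate 1, 56.6 in replicate 2 and 95.5 pooled (rank 4630). Its replicate summits were at -348 and -349, again at nearly the same base, and the pooled summit was at -415. All 3 were nearer to the 5' end of aps-1, which encodes an adaptor protein of vesicle traffic and lies 300 bp away on the opposite strand. rpt-6 had a pooled summit of 80.8 at 368 bp inside the gene, whose peak overlapped one of 41.5 in replicate 1, with its summit at 585, and none in replicate 2. Replicate 2 held a separate 5' summit of 26.2 at -304. rpt-4 had body summits only, at most 50.4 pooled, and 1 of its 3 pooled summits lay in nfyc-1, a gene within it on the other strand. rpt-3 and rpt-5 had no summit in any of the lists, neither at the 5' end nor in the gene.

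**Figure D2:**
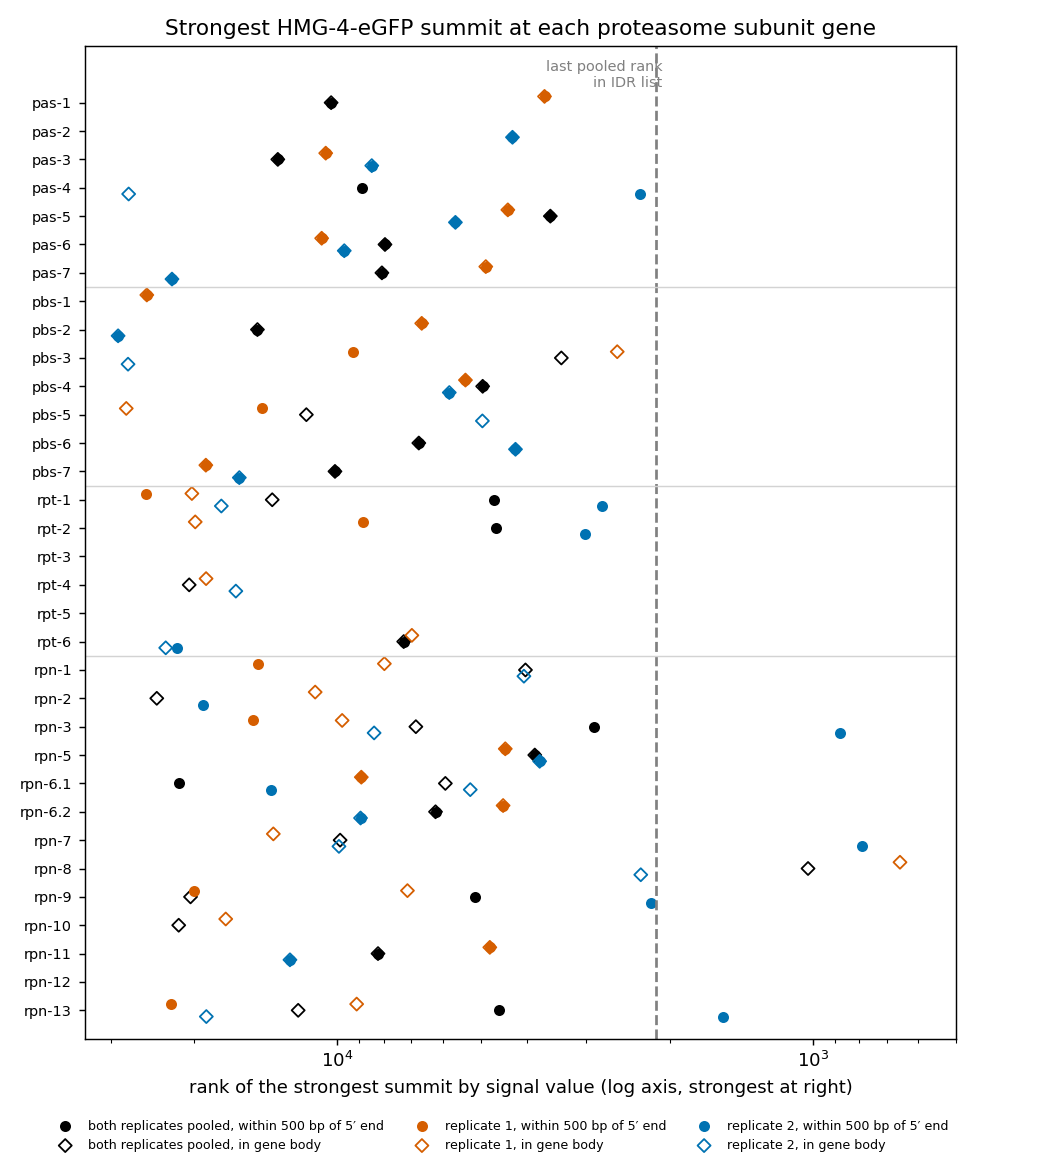
Rank by signal value of the strongest summit at each of the 33 genes (1 row each, grouped by role) in the pooled list, replicate 1 and replicate 2; filled circles are summits within 500 bp of the 5' end, open diamonds summits in the gene body, and the dashed line is the last pooled rank in the IDR list, 2137. Among the pooled points only that of rpn-8 lies beyond the line, and 3 rows (rpt-3, rpt-5 and rpn-12) are empty.

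The 13 non-ATPase genes held the strongest 5' summit of any member in the pooled list, at rpn-3, and in replicate 2, at rpn-7, whereas in replicate 1 it was at pas-1. Of the 13, 7 had a pooled 5' summit and 12 had a pooled summit in the body. Over all protein-coding genes the shares with such summits were 29.5% and 40.6%. Gene length is not allowed for in these counts. It ran from 1069 (rpn-12) to 3494 bp (rpn-1), against 932 (pbs-1) to 1311 bp (pbs-5) in the alpha-ring and beta-ring genes. rpn-3, a lid subunit gene at 8447353 to 8449346 on chromosome III, had a peak upstream of its start with a value of 35.2 in replicate 1 (rank 15026), 92.9 in replicate 2 (rank 877) and 115 pooled (rank 2882). The summits lay at -246, -183 and -181. Replicate 2 was therefore far higher than replicate 1, with summits 63 bp apart. The pooled summit was 77 bp from the 5' end of a non-coding RNA gene, C30C11.14, and the chaperone gene hsp-110 lies 443 bp away on the other strand. rpn-13, whose product is a ubiquitin receptor, lies at 6340113 to 6341928 on chromosome III. Its upstream peak was 74.1 in replicate 2 (rank 1546) and 96.0 pooled (rank 4565), with summits at -315 and -320, and it overlapped no peak of replicate 1. rpn-9, another lid subunit gene, at 11237447 to 11238919 on chromosome II, had 29.9 in replicate 1 (rank 20063), 63.9 in replicate 2 (rank 2194) and 91.7 pooled (rank 5147), with summits at -191, -274 and -231. In these 3 genes the upstream peak was high in replicate 2 and low or missing in replicate 1. The strongest summit of each in replicate 1 lay in the gene body, at 42.9 in rpn-3, 44.1 in rpn-13 and 48.3 in rpn-9.

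The replicates were closer at rpn-5, a lid subunit gene at 4696418 to 4698427 on chromosome II. Its values were 57.1 in replicate 1 (rank 4437), 52.2 in replicate 2 (rank 3756) and 103 pooled (rank 3846), with summits 278, 210 and 269 bp inside the gene. rpn-1, which encodes a scaffold subunit, had its strongest peak far inside the gene, 2372 bp from the 5' end in the pooled list. The values were 46.5 in replicate 1 (rank 7969), 50.8 in replicate 2 (rank 4054) and 101 pooled (rank 4024), in a coding exon. The replicate summits lay 2377 and 2217 bp inside the gene, so the peak was in both lists but ranked higher in replicate 2. rpn-6.1 had 44.5, 46.3 and 87.0 in an intron, and its paralogue rpn-6.2 had 56.9, 38.2 and 85.6, between 51 and 280 bp inside the gene. rpn-11, which encodes the deubiquitinating subunit, had 55.7 in replicate 1, 33.4 in replicate 2 and 76.9 pooled. At rpn-7 the strongest summit was in 1 list only. In replicate 2 it had the strongest member summit of all, 96.6 with rank 788, at -436, whereas neither replicate 1's nor the pooled list held a peak that overlapped it. That summit lay inside the neighbouring gene F49C12.9, 20 bp from its 5' end. rpn-2 and rpn-10, a scaffold and a ubiquitin receptor, had at most 45.6 and 48.8 pooled, and rpn-12 had no summit in any list.

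**Figure D3:**
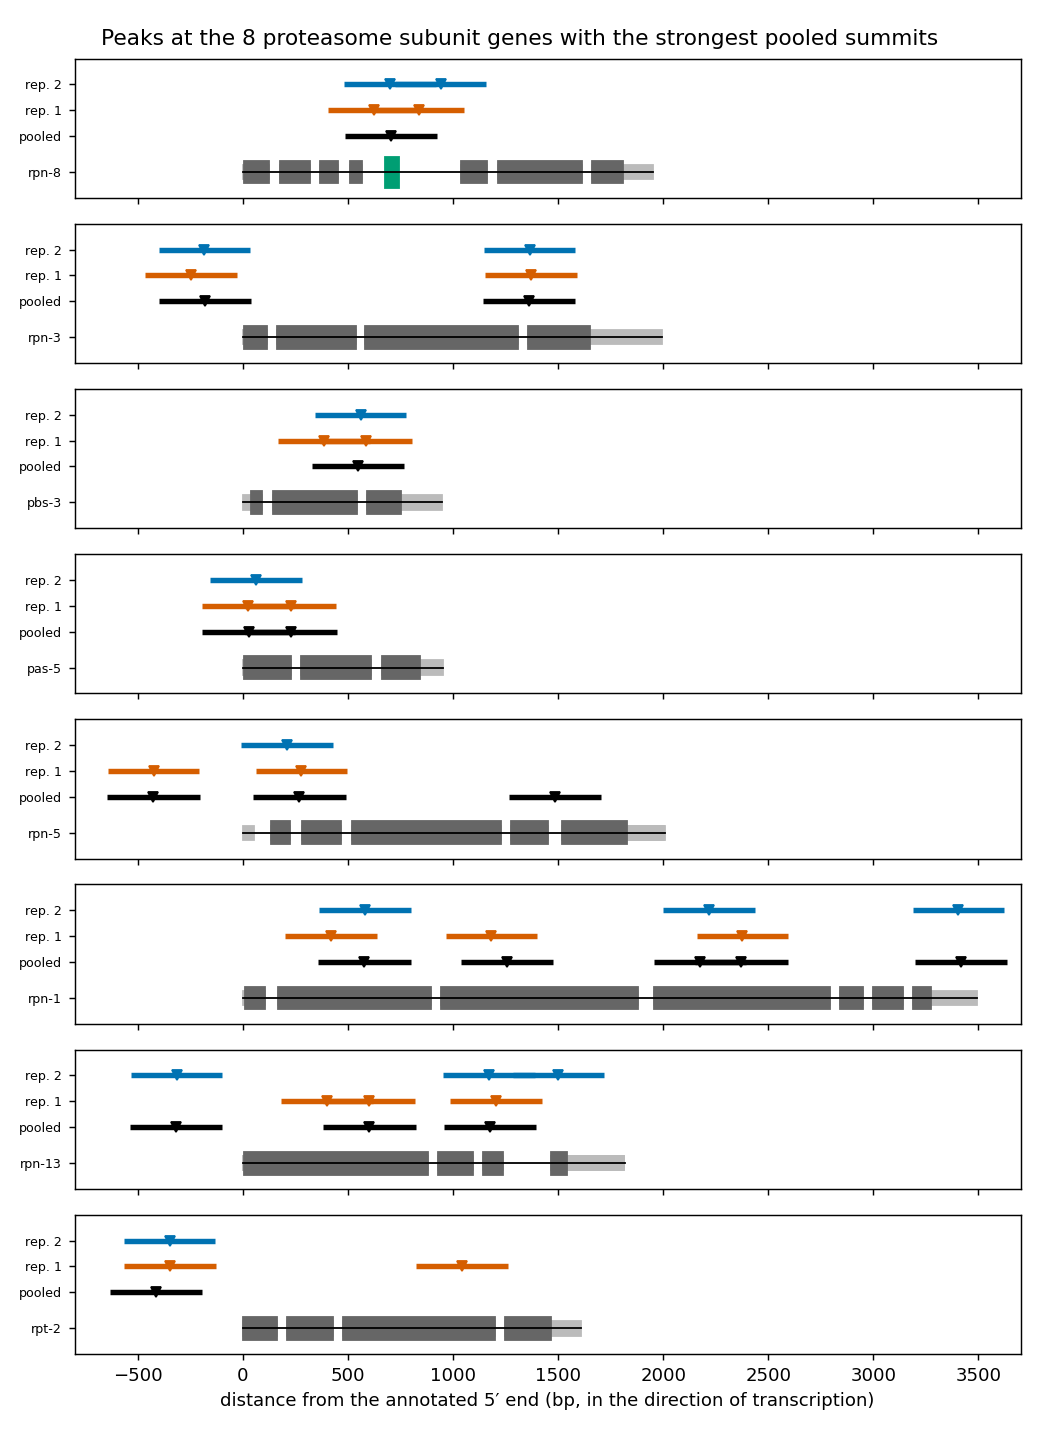
Gene maps of the 8 members with the strongest pooled summits, drawn by distance from the annotated 5' end in bp, with exons in light grey, coding parts in dark grey and a gene within the member in green; bars above are peaks of the pooled list, replicate 1 and replicate 2, and triangles their summits. The peak at rpn-8 covers the snoRNA gene in its intron. The strongest pooled summits of rpn-3, rpn-13 and rpt-2 lie upstream of the first exon, and other summits of these genes lie inside.

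The bases under 4 upstream summits and 2 internal ones are shown because these are among the strongest peaks below the IDR limit. The internal summits of pas-5 (106), rpn-1 (101) and pbs-4 (92.9), of similar strength, are not shown. The upstream windows lie in no annotated exon, and that of rpt-2, which lies within aps-1, is left out. Each is 121 bases of the ce11 genome centred on the pooled summit, written 5′ to 3′ on the strand of the gene, and the capitals mark the 21 bases centred on the summit. The windows are chrIII:8447112-8447232 on the plus strand for rpn-3, and on the minus strand chrIII:6342188-6342308 for rpn-13, chrV:11982441-11982561 for rpt-1, chrII:11239090-11239210 for rpn-9, chrII:4954819-4954939 for pbs-3 and chrII:4698098-4698218 for rpn-5.
rpn-3: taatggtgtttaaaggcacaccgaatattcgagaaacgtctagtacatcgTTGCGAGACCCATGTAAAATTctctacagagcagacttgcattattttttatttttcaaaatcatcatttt
rpn-13: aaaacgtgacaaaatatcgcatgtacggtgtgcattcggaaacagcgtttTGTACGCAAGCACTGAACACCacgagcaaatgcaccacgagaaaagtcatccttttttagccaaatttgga
rpt-1: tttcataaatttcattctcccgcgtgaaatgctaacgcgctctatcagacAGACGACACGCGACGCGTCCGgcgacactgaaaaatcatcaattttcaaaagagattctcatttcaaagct
rpn-9: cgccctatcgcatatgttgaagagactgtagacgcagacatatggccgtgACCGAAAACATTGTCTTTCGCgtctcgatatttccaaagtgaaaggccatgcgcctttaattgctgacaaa
pbs-3: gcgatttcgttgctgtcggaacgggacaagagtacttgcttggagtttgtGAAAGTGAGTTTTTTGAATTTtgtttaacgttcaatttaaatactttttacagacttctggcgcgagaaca
rpn-5: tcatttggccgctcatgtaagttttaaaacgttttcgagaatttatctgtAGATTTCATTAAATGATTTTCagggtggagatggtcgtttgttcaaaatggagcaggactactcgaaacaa
The windows of pbs-3 and rpn-5 span an intron and parts of the coding exons beside it. Their GC content was 38.8% and 36.4%, and that of the upstream windows 33.9% at rpn-3, 43.0% at rpn-13, 43.0% at rpt-1 and 46.3% at rpn-9. The window at the strongest rpn-1 summit, not shown, had 49.6%. Over the 57 pooled summits at members the median GC content of such windows was 43.0%, against 45.5% over all 30000 pooled peaks, 51.2% over the IDR peaks and 35.4% over the genome.

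The replicates differed in where the strongest member peaks lay. Of the 10 strongest member summits in replicate 1, 10 lay inside the gene. Of the 10 strongest in replicate 2, 8 lay upstream of the 5' end, at rpn-7, rpn-3, rpn-13, rpn-9, pas-4, rpt-1 (2 summits) and rpt-2. At rpn-7, rpn-3, pas-4 and rpt-2 another gene's 5' end was nearer than that of the member. Among all member summits within 500 bp of the 5' end, 6 of 23 (26.1%) were upstream in replicate 1 and 13 of 27 in replicate 2. The median signal value of the upstream ones was 35.6 in replicate 1 and 56.6 in replicate 2, and that of the ones inside was 44.5 and 38.5. All protein-coding genes showed a shift the same way, with 45.6% upstream in replicate 1 and 57.6% in replicate 2, so a shift in position was not seen in the proteasome genes alone. Their strengths changed order between replicates, whereas over all protein-coding genes the upstream summits had the higher median in both, 42.1 against 35.7 in replicate 1 and 37.1 against 31.0 in replicate 2. The difference was not tested, nor was a cause.

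**Figure D4:**
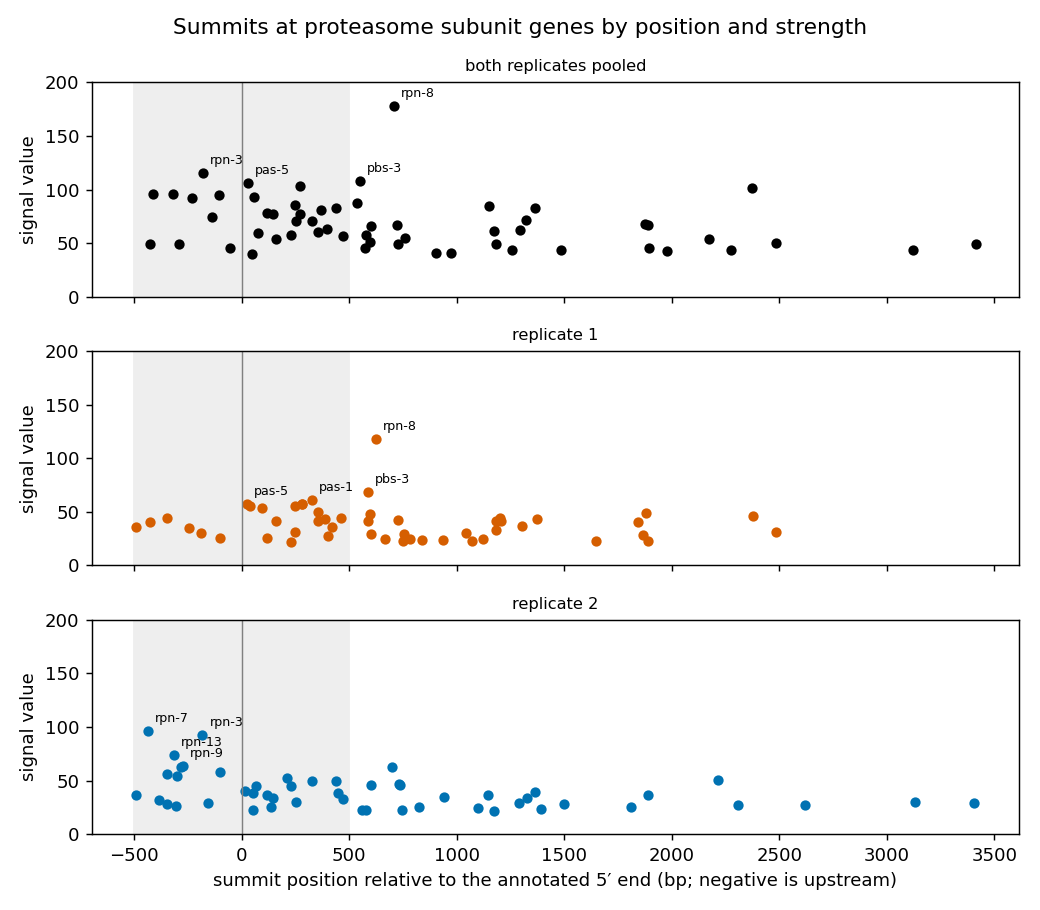
Signal value (vertical axis) of every summit at the 33 genes against its position relative to the annotated 5' end in bp (horizontal axis, negative upstream) in the pooled list, replicate 1 and replicate 2; the grey band is the 500-bp window and the 4 strongest are named. In replicate 1 the highest points lie inside the genes, led by rpn-8 at 118, and in replicate 2 upstream, led by rpn-7 at 96.6.

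Over the 16 members with a 5' summit in both replicates, the strongest summits lay within 100 bp of each other at 9. Both were upstream at 4 members and both inside at 10, and at rpn-6.1 and rpn-13 they were on opposite sides of the 5' end. The strengths did not rank the members alike. Over these 16, Spearman's rho between the replicates' values was -0.37, and over the 21 members with a body summit in both it was 0.13. These are descriptions across genes that share their libraries. They pair the strongest summit of each replicate, which need not be the same peak. No rho was computed over all protein-coding genes, so it is not read as a trait of the members. The replicate 1 value over the replicate 2 value ran from 0.374 to 2.22 at 5' ends and from 0.494 to 3.00 in bodies. By overlap of at least 1 bp, 35 of the 57 pooled member summits had a peak in both replicates, 12 in replicate 1 alone, 9 in replicate 2 alone and 1 in neither. With summits required to lie within 100 bp, 20 had one in both. The same counts were not made over all pooled peaks, so they are not read as a trait of these genes. Some pooled peaks overlap each other, as at pas-5, and can match the same replicate peak.

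Summits inside the genes lay in coding exons about as often as coding sequence makes up these genes. Of the 57 pooled summits, 33 lay in coding exons, 13 in introns, 2 in 3' UTRs and 9 upstream. The 33 are 68.8% of the 48 inside the genes, and 66.8% of the members' body sequence is coding. In the replicates the members' share was 68.9% and 68.4%. Over all protein-coding genes 50.8% of pooled body summits lay in coding exons, and 38.3% of the body sequence is coding. That share varied by list, with 56.0% in replicate 1, 40.1% in replicate 2 and 17.3% in the IDR list. Per kb of gene body there were 0.872 pooled summits at proteasome genes, 0.817 in replicate 1 and 0.690 in replicate 2, against 0.333, 0.349 and 0.306 over all protein-coding genes. The proteasome genes are short, with a median length of 1490 bp against 2027 bp, so their higher share of genes with a body summit was reached over less sequence. Another gene's 5' end was nearer than that of the member for 20 of the 57 summits, and for 5 of the 27 within 500 bp of the 5' end. The same count was not made for the summits of all protein-coding genes, so it is not read as a trait of these genes. Of the members, 10 have their nearest upstream protein-coding neighbour on the same strand and 23 on the opposite strand. Where the gap is at most 500 bp, 4 of 8 with a same-strand neighbour had a pooled 5' summit. With an opposite-strand neighbour it was 9 of 12. This is a comparison on few genes that was not tested. Nor was it made over all protein-coding genes, so it is not read as a trait of the members.

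Other genes of the ubiquitin and proteasome pathway were set beside the subunit genes without a test. Of 21 such genes, 12 (57.1%) had a pooled 5' summit and 15 (71.4%) had one at the 5' end or in the body. The subunit genes had 60.6% and 84.8%, and all protein-coding genes 29.5% and 46.2%. Among the 10000 strongest pooled peaks, 6 (28.6%) had a 5' summit, where the subunit genes had 45.5% and all protein-coding genes 14%. The exact 95% intervals were 11.3 to 52.2 for the other pathway genes and 28.1 to 63.6 for the subunit genes. The shares of the other pathway genes were nearer to those of the subunit genes at other depths. They were 19% against 21.2% among the 5000 strongest and 47.6% against 57.6% among the 20000 strongest. The strongest were at cdc-48.1, the segregase that extracts ubiquitin-marked proteins (208), inside the ubiquilin gene ubql-1 (143), inside the polyubiquitin gene ubq-1 (124), upstream of the ubiquitin fusion gene ubq-2 (120) and upstream of aip-1, whose product associates with the proteasome under arsenite (104). The pooled peak at cdc-48.1 had rank 727, with its summit at -161, and replicate 2 had 161 at -155. The strongest summit in replicate 1, 50.1, lay elsewhere, 64 bp inside the gene. The pooled peaks of cdc-48.1 and ubql-1 were in the IDR list. At skn-1, whose product activates proteasome genes when the proteasome is impaired, the strongest pooled summit was 96.3, 3180 bp inside the gene. None was at ddi-1, which encodes the protease that processes the skn-1 product. The other listed regulators, sel-11 (87.8), png-1 (71.3) and sel-1 (60.2), each had a pooled summit. On chromosome IV skn-1 spans 5651039 to 5660384 and ddi-1 6522867 to 6524571, so skn-1 is far the longer gene. Of the genes for the CCT chaperonin, another complex needed in fixed proportions, 4 of 8 had an IDR summit at the 5' end. Cytosolic ribosomal protein genes had 33 of 81, where proteasome genes had 0 of 33. The share was 1 of 21 (4.76%) among the other pathway genes and 4.38% over all protein-coding genes. Both lie within the exact 95% interval of the proteasome genes, which reaches 10.6%. These differences were not tested.

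The letters TGTCAT and TATCAT, the core of the SKN-1 binding sequence, were searched on both strands from 250 bases before to 50 bases after each 5' end. They were present in 15 of 33 proteasome promoters (45.5%) and in 32.3% of all protein-coding promoters. A match is a description of the letters and no evidence of a bound site.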

How the data were processed

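ChIP-seq peaks were taken from 4 deposited lists on the ce11 build: 1 per replicate, 1 pooled and 1 IDR list. The deposited text files record that the replicate and pooled lists derive from alignments to ce11 together with a control. No source used here gives the aligner, the peak caller or the limit on IDR. The deposited signal value of each peak is the enrichment measure of the authors' caller, and the deposited −log10 q-value was used as a threshold only. The deposited p-value field holds no values and was not used. Control libraries are not analysed here.

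Coordinates are 1-based. All 30000 pooled peaks lie within the chromosomes of the WBcel235 genome (100 Mb), and genes come from Ensembl release 115. A summit was assigned to every gene whose 5' end lay within 500 bp or whose body held it, for all 19973 protein-coding genes, with Python 3.11.15 and pandas 2.3.3. The pairing was checked on simulated summits at 200 genes. Intervals are exact binomial. The members and lists were chosen with earlier results of these data known. The rule for named genes gives the 12 members with the strongest pooled summit and those with a 5' summit in both replicates. The other members were named after their values were seen, as were skn-1, ddi-1, sel-11, png-1 and sel-1 among pathway genes. Promoters were read from the RefSeq genome sequence, where a promoter table had been planned.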

Additional observations from a re-analysis of the deposited data

How the results depend on the processing

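Of 46 alternative values, 34 stayed within 1.5 times the reported count or within the spread between replicates (SD 39.3 for the strongest signal value). With a window of 200 bp, 10 members in place of 20 had a pooled 5' summit, and with 1000 bp the count of members with an IDR summit rose from 1 to 2. With the 10000 strongest peaks of each list, 15 members in place of 26 had a body summit, and 11 in place of 24 had a summit in both replicates. With a −log10 q-value of at least 2, 1 member had a pooled 5' summit, 1 a body summit and 2 either, and 0 had one in both replicates. The strongest value at a member, 178, was 108 when summits nearer to another gene's 5' end were left out. Without replicate 1 or without replicate 2 it was 96.6 and 118, on the scale of a single replicate's list. With summits within 100 bp, 20 of the pooled member summits in place of 35 were matched in both replicates. The full lists reach down to a −log10 q-value of 0.281 pooled, 0.361 in replicate 1 and 0.0743 in replicate 2, so counts over them include weak entries. The counts with other windows or with the q-value limit were made for the members only. No share over all protein-coding genes stands beside them. No paired analysis was possible because there was 1 group only.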
